A study of Mus musculus with 15 samples.

Results

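The 7 genes of creatine synthesis, uptake and phosphorylation (Gatm, Gamt, Slc6a8, Ckb, Ckmt1, Ckmt2 and Alpl) were followed in interscapular brown fat. They were chosen by name from 18194 genes that have a probe set with a single gene symbol. Together they have 9 such probe sets, and where a gene had several, the one brightest on average stood for it. Of the 7 genes, 6 lay above the filter on dim probe sets and were tested among 13174 genes. The mice were adult wild-type males of strain C57BL/6N, all on a high-fat diet, with tissue taken on day 5 after treatment began. The 5 control mice (31 to 35) have no injected substance named in the labels. The 5 FGF21 mice (36 to 40) received the human hormone at 1 mg/kg in each of 2 daily injections. The 5 aFGFR1/KLB mice (41 to 45) received 10 mg/kg of bFKB1 once, into the abdominal cavity. It is an antibody that activates the receptor FGFR1 together with its co-receptor KLB. The text deposited with the series calls the 5 samples of a group biological replicates, taken here as 1 mouse each. Each is whole tissue on 1 array, so fewer cells of a type and less RNA per cell cannot be told apart.

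Creatine is made in a pair of steps. Gatm (AGAT) moves an amidino group from arginine to glycine, and Gamt methylates the product with S-adenosylmethionine. Slc6a8 carries creatine into cells. Creatine kinases pass phosphate between ATP and creatine: Ckb is the cytosolic brain-type enzyme, Ckm its muscle-type relative, and Ckmt1 and Ckmt2 are the ubiquitous and the sarcomeric mitochondrial enzymes. Alpl encodes tissue-nonspecific alkaline phosphatase, which can release phosphate from phosphocreatine. In thermogenic fat a cycle of creatine phosphorylation and phosphate release that spends ATP has been described. Skeletal muscle is rich in Ckm and Ckmt2, and muscle lies next to this depot.

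Values are log2 of the deposited intensity, where a difference of 1 is a doubling. The median intensity of the arrays lay between 50.6 and 52.1 before log2. Brown adipocyte markers (11 of 12 tested) averaged 12.2 to 12.6 in every sample, at 12.19 to 12.43 in controls and 12.48 to 12.63 in treated mice. Muscle content was read as the mean log2 of Acta1, skeletal actin, and Ckm. This muscle score spanned 10.3 to 12.1 in controls, 5.42 to 13.9 with FGF21 and 5.26 to 14.0 with the antibody. Control 34 and FGF21 36 stood apart in markers of macrophages, with list means of 10.8 and 11.3 against 8.46 to 10.03 in the other 13 samples (11 of 12 markers tested). They were high in fibroblast markers too, at 11.8 and 11.3 against 9.46 to 10.6 (9 of 9 tested). Results that rest on either array are given with and without it, except for the likeness between genes.

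**Figure D1:**
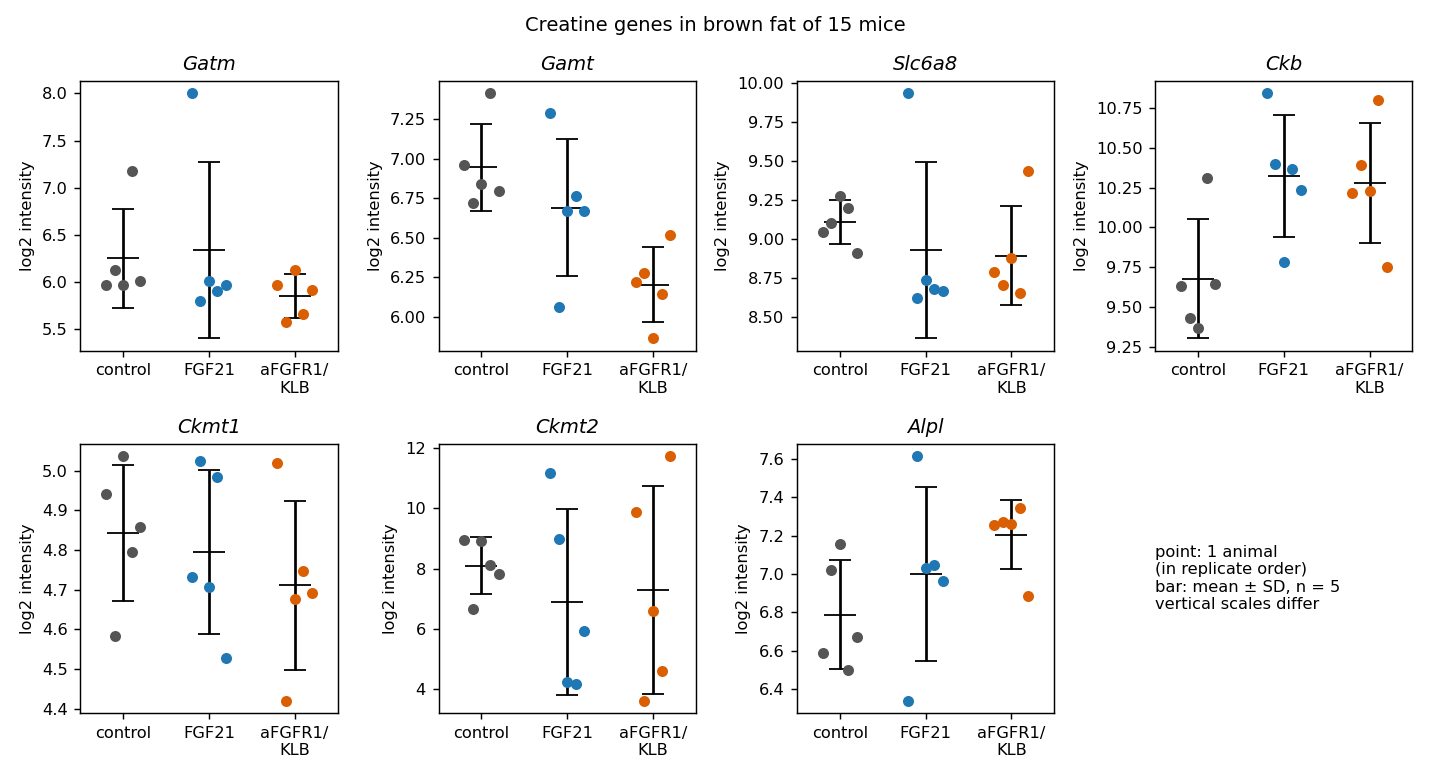
Log2 intensity (vertical axes, scales differ) of the 7 creatine genes in 15 mice by group, with 1 point per animal in replicate order and the mean ± SD of each group (n = 5). The Gamt values with the antibody all lie below the controls, Ckb is higher in most treated mice, and Ckmt2 spreads from 3.61 to 11.73 in treated mice.

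Of the synthesis enzymes, Gamt fell with the antibody, a call that most fits without 1 sample did not keep. It read 6.96, 6.72, 6.84, 7.41 and 6.79 in controls 31 to 35. With FGF21 the values were 7.29, 6.06, 6.67, 6.76 and 6.67, and with the antibody 6.22, 6.28, 5.86, 6.14 and 6.51. Every antibody value lay below every control value, while the FGF21 values overlapped both other groups. The difference of the antibody from control was −0.74 ± 0.19 (log2 fold change ± SE, n = 5 per group, limma adjusted p = 0.0376), or 0.598 of the control level, with a 95% confidence interval of −1.15 to −0.33. An exact permutation test of the same difference gave p = 0.00794, the smallest that 5 against 5 samples allow. Groups without overlap, as in 8.61% of all genes, always give this p, so it adds nothing to the lack of overlap. The FGF21 difference was −0.26 ± 0.19 (adjusted p = 0.51).

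Gamt was 1 of the 6 members tested that passed in the antibody comparison, where 5.18% of all genes passed, and 1 of 6 whose groups did not overlap, against 8.61% of all genes. Before adjustment 3 of 6, Gamt, Ckb and Alpl, had a p under 0.05 there, where 19.4% of all genes did. The call of Gamt ended in 10 of the 15 fits without a single sample, with adjusted p from 0.0145 to 0.0963 over all 15. Those were the fits that left out any control, without FGF21 40 and without aFGFR1/KLB 41, 42, 43 or 44. The size moved little, from −0.82 to −0.62. Without control 34 and FGF21 36 together the difference was −0.62 ± 0.15 and passed (adjusted p = 0.0136).

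Gatm, the first enzyme of the pathway, followed the same pair of arrays. It lay between 5.57 and 6.13 in 13 of the samples, at 7.18 in control 34 and at 8.0 in FGF21 36. The other 4 controls read 5.97 to 6.13, the other 4 FGF21 mice 5.80 to 6.01, and the antibody mice 5.97, 5.57, 6.13, 5.67 and 5.92. Apart from the 2 high arrays the groups thus overlapped. The difference from control was −0.40 ± 0.37 with the antibody (adjusted p = 0.617) and 0.09 ± 0.37 with FGF21 (adjusted p = 0.924). Without both arrays the standard errors shrank to 0.10 and 0.11, and the differences were −0.17 (adjusted p = 0.319) and −0.10 (adjusted p = 0.572).

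Slc6a8, the creatine transporter, had 2 probe sets above the filter. The brighter one read 9.05, 9.11, 9.28, 9.20 and 8.91 in controls. With FGF21 it read 9.93 in mouse 36 and 8.62 to 8.74 in the other 4. With the antibody it read 9.44 in mouse 45 and 8.65 to 8.88 in the other 4. Thus 8 of 10 treated mice lay below all controls, and the 2 that lay above them were the 2 mice with the highest muscle scores (13.9 and 14.0). The differences from control were −0.21 ± 0.22 with the antibody (adjusted p = 0.664) and −0.18 ± 0.22 with FGF21 (adjusted p = 0.713). Without control 34 and FGF21 36 the FGF21 difference was −0.41 ± 0.14 (adjusted p = 0.0658). The dimmer probe set had another pattern, highest in control 34 at 8.11 and in FGF21 36 at 7.84 and between 7.23 and 7.74 elsewhere, with differences of −0.23 (adjusted p = 0.429 over all probe sets) and 0.063 (adjusted p = 0.859).

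Among the kinases, Ckb was about 1.5 times higher in both treated groups but did not pass. Controls read 9.63, 9.43, 9.37, 10.31 and 9.65. FGF21 mice read 10.84, 10.40, 9.78, 10.37 and 10.23, and antibody mice 10.22, 10.39, 10.23, 10.80 and 9.75. All 10 treated values lay above those of controls 31, 32, 33 and 35, and control 34 lay among the treated values. The difference was 0.60 ± 0.22 with the antibody (fold 1.52, 95% confidence interval 0.13 to 1.07, limma adjusted p = 0.135). With FGF21 it was 0.65 ± 0.22 (fold 1.57, 95% confidence interval 0.18 to 1.12, adjusted p = 0.101). Exact permutation tests of the single gene gave p = 0.0317 and p = 0.0238.

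The call on Ckb turned on control 34. Without that array Ckb was higher by 0.76 ± 0.20 with the antibody (adjusted p = 0.0332, where 8.65% of all genes passed) and by 0.80 ± 0.20 with FGF21 (adjusted p = 0.0164, where 15.9% passed). Without control 34 and FGF21 36 the differences were 0.76 ± 0.18 (adjusted p = 0.0144) and 0.67 ± 0.19 (adjusted p = 0.0264). In those fits 12.4% and 16.2% of all genes passed. Over the fits without 1 sample the adjusted p ranged from 0.0332 to 0.299 for the antibody and from 0.0164 to 0.224 for FGF21.

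Ckmt1 was dim on both of its probe sets, which lay below the filter of 5.06, so it has no adjusted p here. The brighter one read 4.58 to 5.04 in controls, 4.53 to 5.02 with FGF21 and 4.42 to 5.02 with the antibody. These ranges overlap almost entirely. Exact permutation tests gave p = 0.302 for the antibody (difference −0.13) and p = 0.683 for FGF21 (−0.05). The other probe set read 2.96 to 3.34.

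Ckmt2, the sarcomeric mitochondrial kinase, varied more than any other member. It read 8.94, 6.66, 8.92, 8.12 and 7.83 in controls. FGF21 mice read 11.15, 8.99, 4.24, 4.18 and 5.92, and antibody mice 9.86, 3.61, 6.60, 4.60 and 11.73. Both treated groups thus reached above and below the whole control range, and the SD was 0.94 in controls, 3.07 with FGF21 and 3.45 with the antibody. The differences from control, −0.81 ± 1.56 with the antibody (adjusted p = 0.84) and −1.20 ± 1.56 with FGF21 (adjusted p = 0.736), had intervals wider than 6 log2 units (−4.16 to 2.53 and −4.54 to 2.15).

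The level of Ckmt2 followed the muscle score in every group. Acta1 read 12.68, 11.06, 12.78, 11.76 and 11.51 in controls, 14.28, 13.06, 5.09, 8.12 and 10.29 with FGF21, and 13.37, 5.72, 10.38, 4.69 and 14.51 with the antibody. Ckm read 11.04, 9.46, 11.51, 10.05 and 9.88 in controls, 13.58, 11.63, 5.74, 6.98 and 8.77 with FGF21, and 12.05, 6.05, 8.89, 5.84 and 13.49 with the antibody. The samples highest in either muscle gene, FGF21 36 and aFGFR1/KLB 45, were highest in Ckmt2. In 4 arrays Ckmt2 lay below the filter, and these were the 4 with the lowest muscle scores: aFGFR1/KLB 44 and 42 and FGF21 38 and 39. Their brown adipocyte means were 12.556 to 12.627, beside 12.478 to 12.621 in the other treated samples.

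Over the 15 samples Ckmt2 and the muscle score had a Pearson r of 0.962 (permutation p = 1e-05, the smallest that 100000 resamples give, adjusted p = 6e-05 over 6 members) and a Spearman rho of 0.964 (permutation p = 1e-05, adjusted p = 6e-05). A single line through all samples had a slope of 0.84 log2 units of Ckmt2 per unit of the score. Over the 4 lowest scores, 5.26 to 7.55, Ckmt2 lay between 3.61 and 4.60 and did not rise. With each group centred on its mean r was 0.967, and without the 2 samples farthest from the median score, aFGFR1/KLB 44 and FGF21 38, it was 0.985. Leaving out any 1 sample gave 0.954 to 0.972. With the muscle score in the model the difference of Ckmt2 from control became 0.63 ± 0.42 with the antibody (adjusted p = 0.477) and 0.027 ± 0.42 with FGF21 (adjusted p = 0.979), and its standard error fell from 1.56 to 0.42. Both intervals, −0.28 to 1.54 and −0.87 to 0.93, remained wide. The model takes a straight line for the score, which the flat stretch at low scores does not follow. No other shape was tried, so the size and sign of these adjusted differences depend on that line.

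**Figure D2:**
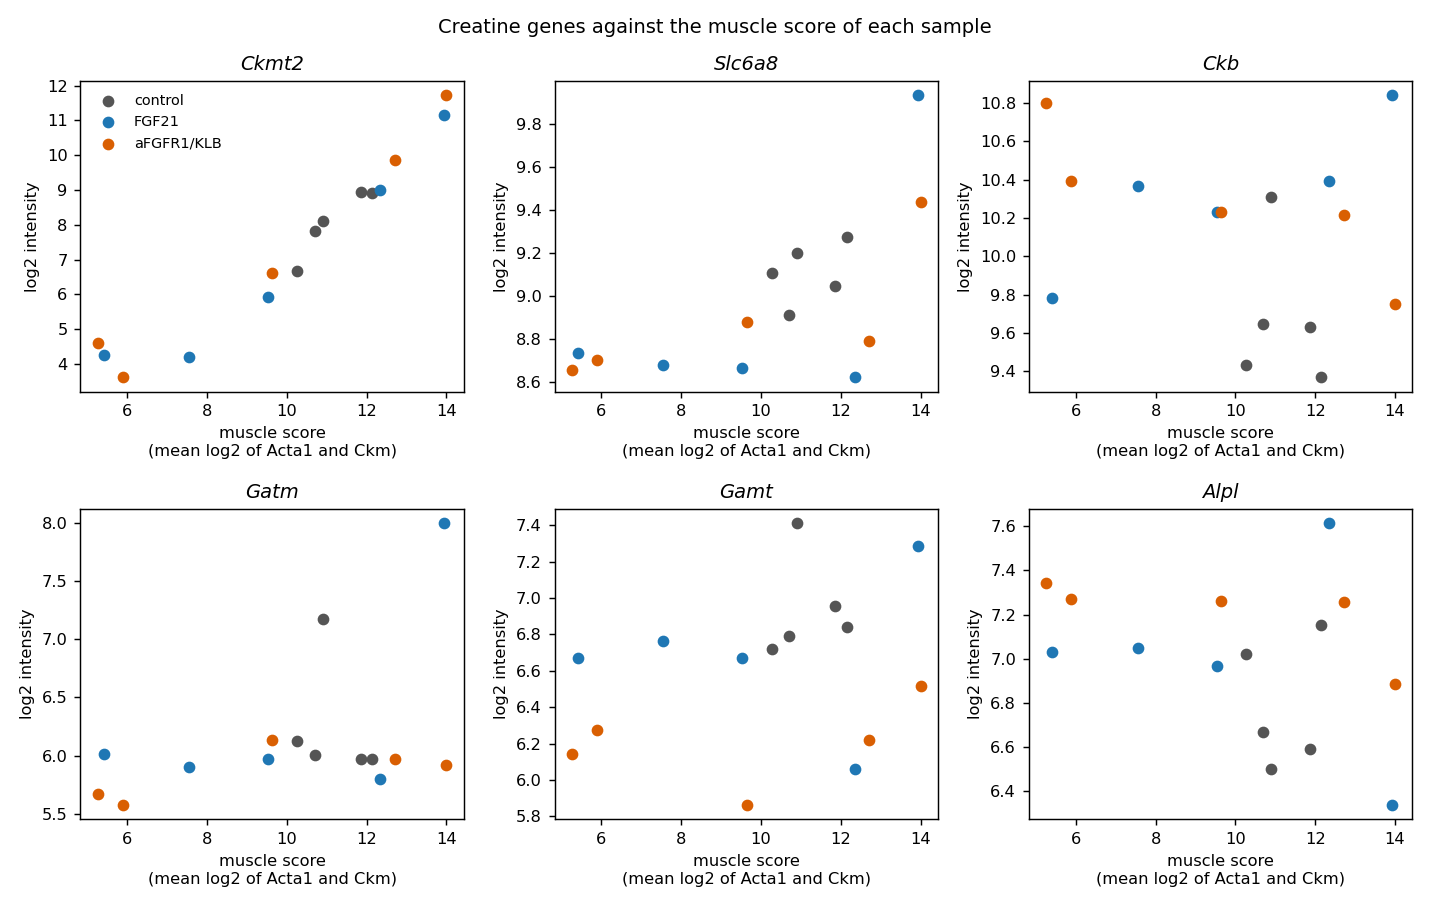
Log2 intensity of the 6 tested creatine genes (vertical axes) against the muscle score, the mean log2 of Acta1 and Ckm (horizontal axes), with 1 point per mouse coloured by group. Ckmt2 rises with the score to 11.73 (r = 0.962), except over the 4 lowest scores, where it lies between 3.61 and 4.60. Ckb shows no such rise (r = −0.21).

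The region before the start of Ckmt2 is shown beside those of Ckm, which it followed, and of Ckb, which did not follow muscle. Each run is the 250 bases before the start of the gene in RefSeq (GRCm38.p6), 5′ to 3′ on the gene's strand, and capitals mark every match to 1 of 6 motifs on either strand. The motifs were the E-box CAGCTG, the TATA box TATAAA, the CCAAT box CCAAT, the GC box GGGCGG, the CArG box and the MEF2 site. They were chosen after the values were seen.
Ckmt2 (chr13:91876886-91877135, minus strand): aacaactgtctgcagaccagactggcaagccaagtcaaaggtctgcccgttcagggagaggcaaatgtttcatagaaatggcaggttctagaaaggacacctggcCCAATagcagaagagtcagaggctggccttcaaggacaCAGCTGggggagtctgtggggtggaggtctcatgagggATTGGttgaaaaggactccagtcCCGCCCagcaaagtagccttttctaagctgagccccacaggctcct
Ckm (chr7:19410844-19411093, plus strand): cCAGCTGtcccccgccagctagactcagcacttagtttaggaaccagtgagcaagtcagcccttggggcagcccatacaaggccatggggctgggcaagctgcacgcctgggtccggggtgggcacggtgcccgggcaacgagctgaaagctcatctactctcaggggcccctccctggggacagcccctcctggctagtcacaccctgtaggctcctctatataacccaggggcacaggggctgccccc
Ckb (chr12:111672339-111672588, minus strand): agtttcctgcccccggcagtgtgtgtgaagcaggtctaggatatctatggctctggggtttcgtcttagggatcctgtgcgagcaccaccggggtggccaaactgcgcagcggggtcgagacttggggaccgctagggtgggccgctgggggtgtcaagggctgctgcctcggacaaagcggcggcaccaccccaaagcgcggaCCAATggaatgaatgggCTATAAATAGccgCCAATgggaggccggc
Ckmt2 and Ckm each hold the E-box CAGCTG, 107 and 249 bases before the start. It is also in 1 of the windows of Alpl, 176 bases before the start, a gene whose r with the muscle score was −0.36. This motif is in 13% of the 32851 promoter windows of that length. The Ckb window holds the TATA box 28 bases before the start (12.4% of windows), with the MEF2 site overlapping it (2.92%), and CCAAT at 46 and 16 bases (33.8%). Ckmt2 also holds CCAAT on both strands and 1 GC box (32.7%), and the CArG box (1.47%) is in none of these 3. A match is only a match of letters.

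Slc6a8 had the other relation to muscle that passed, with r = 0.657 (permutation p = 0.00673, adjusted p = 0.0202) and rho = 0.611 (permutation p = 0.018, adjusted p = 0.054). It no longer passed without the 2 samples farthest in muscle score (r = 0.635, adjusted p = 0.0635), although r was little changed and the call was kept without either of them alone (adjusted p = 0.0431 and 0.0328). It also missed the threshold on group-centred values (r = 0.632, adjusted p = 0.0767), without FGF21 36 (r = 0.618, adjusted p = 0.0579) and with both probe sets averaged (r = 0.537, adjusted p = 0.107). With the muscle score in the model the Slc6a8 differences shrank to −0.083 ± 0.19 with the antibody and −0.069 ± 0.18 with FGF21. For the other 4 members the relation did not pass: r was −0.21 for Ckb (rho −0.19), 0.435 for Gatm (rho 0.232), 0.285 for Gamt (rho 0.232) and −0.36 for Alpl (rho −0.36), with permutation p of 0.444, 0.0934, 0.304 and 0.195 and adjusted p of 0.444, 0.187, 0.365 and 0.292.

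At a given muscle score, Gamt was lower with the antibody by a similar amount, −0.71 ± 0.20, but missed the threshold (limma adjusted p = 0.0623). In that model 0 of 6 members passed in either comparison with control, where 4.3% and 6.2% of all genes did. Before adjustment 2 and 1 members lay under 0.05, where 18.6% and 21.2% of all genes did. Ckb differed from control by 0.59 ± 0.23 with the antibody and by 0.64 ± 0.23 with FGF21, close to the values without the score.

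Alpl, the phosphatase of the group, was higher in most antibody mice. Controls read 6.59, 7.02, 7.15, 6.50 and 6.67. FGF21 mice read 6.34, 7.62, 7.03, 7.05 and 6.97, and antibody mice 7.26, 7.27, 7.26, 7.35 and 6.89. Of the antibody values, 4 of 5 lay above all controls, and the fifth, of mouse 45, lay inside their range. The difference was 0.42 ± 0.19 with the antibody (fold 1.34, limma adjusted p = 0.245, exact permutation p = 0.0476) and 0.21 ± 0.19 with FGF21 (fold 1.16, adjusted p = 0.597, exact permutation p = 0.373).

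Alpl was low where macrophage and fibroblast transcripts were high. Setting Alpl and the other members against 8 marker lists was a step added after the first results. Control 34 and FGF21 36, the samples with the highest macrophage means, had the lowest Alpl of all 15 mice, and FGF21 37, with the lowest macrophage mean of its group (8.75), had the highest. With groups centred on their means r was −0.88 (permutation p = 0.00104, adjusted p = 0.0317 over 48 relations), and −0.87 without control 34 and FGF21 36 (permutation p = 0.0141, adjusted p = 0.226). On uncentred values r was −0.69 (permutation p = 0.00513, adjusted p = 0.0224) and rho −0.57 (permutation p = 0.0302, adjusted p = 0.108). Uncentred r without those 2 arrays, the farthest from the median macrophage mean, was −0.33 (permutation p = 0.273), so on uncentred values the relation rests on them. With the fibroblast list r was −0.75 (permutation p = 0.00098, adjusted p = 0.00824) and rho −0.74 (permutation p = 0.00259, adjusted p = 0.0249). Without the same 2 arrays that r was −0.51 (permutation p = 0.0728). On group-centred values it was −0.76 (permutation p = 0.00178, adjusted p = 0.0317), and −0.79 without both arrays (permutation p = 0.0112, adjusted p = 0.226).

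With the macrophage mean as a covariate, Alpl was higher by 0.43 ± 0.10 with the antibody (limma adjusted p = 0.0107) and by 0.44 ± 0.10 with FGF21 (adjusted p = 0.0169). Gamt was lower in that model, at −0.76 ± 0.12 (adjusted p = 0.00146) and −0.47 ± 0.13 (adjusted p = 0.0334). So 2 of 6 members passed in each comparison, where 13.5% and 10.1% of all genes passed. Ckb stayed short of the threshold at 0.59 ± 0.19 (adjusted p = 0.0543) and 0.49 ± 0.20 (adjusted p = 0.151). This model was not fitted without the 2 arrays that stood apart in macrophage markers. Without them and without the covariate, Alpl differed by 0.35 (limma adjusted p = 0.16) and 0.31 (adjusted p = 0.216). Gamt then differed by −0.62 (adjusted p = 0.0136) and −0.29 (adjusted p = 0.223). Of these Alpl and Gamt differences, only that of Gamt with the antibody passed.

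**Figure D3:**
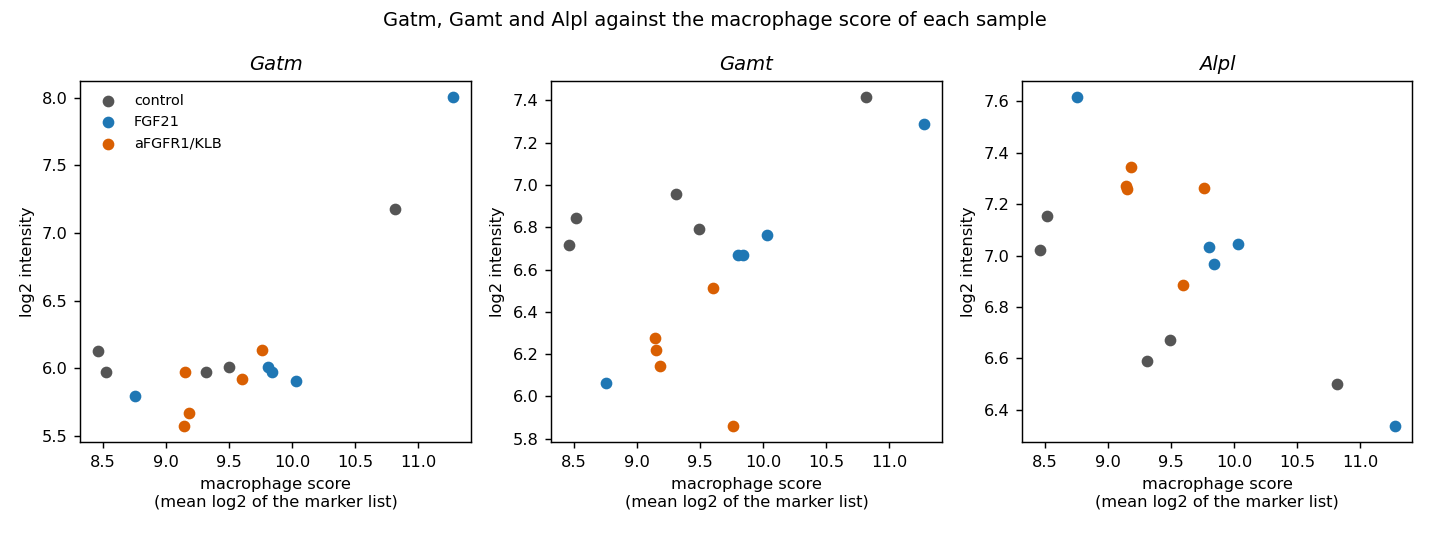
Log2 intensity of Gatm, Gamt and Alpl (vertical axes) against the macrophage score, the mean log2 of 11 marker genes (horizontal axes), with 1 point per mouse coloured by group. Control 34 (10.8) and FGF21 36 (11.3) lie at the right, high in Gatm and low in Alpl.

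The other members were set against the same 8 marker lists in the same added step. Gatm and the macrophage mean had r = 0.781 over all samples (permutation p = 0.00201, adjusted p = 0.0121; rho = 0.436, permutation p = 0.106, adjusted p = 0.243). Without control 34 and FGF21 36 it was 0.108 (permutation p = 0.733), so it rests on those arrays. Gatm had r = 0.889 with the neutrophil list (4 of 6 markers tested, permutation p = 0.00125, adjusted p = 0.00857; rho = 0.467, permutation p = 0.0811, adjusted p = 0.195). With the fibroblast list it had r = 0.810 (permutation p = 0.00465, adjusted p = 0.0223; rho = 0.497, permutation p = 0.061, adjusted p = 0.183). Without the same arrays these were 0.230 (permutation p = 0.457) and 0.346 (permutation p = 0.248), so they rest on them too.

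Gamt and the fibroblast list had r = 0.751 (permutation p = 0.00103, adjusted p = 0.00824) and rho = 0.600 (permutation p = 0.0205, adjusted p = 0.0983), with r = 0.439 without those 2 arrays (permutation p = 0.134). On group-centred values r was 0.794 (permutation p = 0.00198, adjusted p = 0.0317), and 0.585 without both arrays (permutation p = 0.0709, adjusted p = 0.602). With the macrophage list r was 0.541 (permutation p = 0.0371, adjusted p = 0.0936), and 0.023 without both arrays (permutation p = 0.94). Group-centred, that r was 0.800 (permutation p = 0.005, adjusted p = 0.0371), and 0.505 without both arrays (permutation p = 0.133, adjusted p = 0.602). The fibroblast list read 9.55 to 11.8 in controls and 9.46 to 10.1 with the antibody, and its part in the Gamt difference was not tested. Gamt and the brown adipocyte list had r = −0.69 (permutation p = 0.00373, adjusted p = 0.0199) and rho = −0.67 (permutation p = 0.00743, adjusted p = 0.0568). On group-centred values r was −0.54 (permutation p = 0.0551, adjusted p = 0.12), and it turned to 0.126 without control 34 and FGF21 36 (permutation p = 0.764).

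Ckb and the Schwann cell and nerve list (4 of 8 markers tested) had r = −0.80 (permutation p = 0.00035, adjusted p = 0.00824) and rho = −0.76 (permutation p = 0.00149, adjusted p = 0.0224). Without the 2 samples farthest in that list, FGF21 36 and control 33, r was −0.66 (permutation p = 0.015). On group-centred values it was −0.69 (permutation p = 0.00887, adjusted p = 0.0426), and −0.24 without control 34 and FGF21 36 (permutation p = 0.394). That list read 8.14 to 8.62 in controls, 7.99 to 8.32 with FGF21 and 8.23 to 8.35 with the antibody. Ckb and the B cell list (3 of 5 markers tested) had r = −0.77 (permutation p = 0.00103, adjusted p = 0.00824) and rho = −0.84 (permutation p = 0.00023, adjusted p = 0.011). On group-centred values that r was −0.56 (permutation p = 0.0501, adjusted p = 0.115), and without the 2 samples farthest in the list, control 33 and aFGFR1/KLB 44, it was −0.64 (permutation p = 0.02). The B cell list itself read 7.17 to 7.62 in controls, 6.66 to 7.14 with FGF21 and 6.63 to 7.20 with the antibody. The part of either list in the Ckb difference was not tested.

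Slc6a8 and the smooth muscle and pericyte list had r = 0.809 (permutation p = 0.00011, adjusted p = 0.00528) and rho = 0.75 (permutation p = 0.00187, adjusted p = 0.0224). Without the 2 samples farthest in that list, FGF21 36 and aFGFR1/KLB 43, r was 0.883 (permutation p = 7e-05). On group-centred values it was 0.797 (permutation p = 0.0125, adjusted p = 0.05), and 0.708 without control 34 and FGF21 36 (permutation p = 0.0949). The list holds Des, which skeletal muscle also expresses, and it had r = 0.775 with Ckmt2 (permutation p = 0.00067, adjusted p = 0.00824; rho = 0.786, permutation p = 0.00084, adjusted p = 0.0202).

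Between the antibody and FGF21 limma called 0 of 6 members, where 0.372% of all genes passed, and Gamt alone had an unadjusted p under 0.05, as did 13.5% of all genes. No member's groups were without overlap (4.69% of all genes). Gamt was lower with the antibody than with FGF21 by −0.49 ± 0.19 (adjusted p = 0.288, 95% confidence interval −0.90 to −0.08), so Gamt was not shown to differ between the treatments. Ckb differed by −0.04 ± 0.22, with a 95% confidence interval of −0.51 to 0.42. FGF21 against control gave 0 of 6 limma calls, where 6.32% of all genes passed, with Ckb alone under 0.05 before adjustment, as were 20.4% of all genes, and 0 of 6 had groups without overlap against 5.25%. The comparisons with control share the same 5 control mice. Over the members tested the median difference was −0.31 with the antibody and −0.05 with FGF21, beside −0.02 for all genes in each. These medians depended on the model. They turned to 0.14 and 0.10 with the muscle score in it, and were −0.33 and −0.34 with the macrophage score. Without the 2 arrays that stood apart in macrophage markers they were −0.18 and −0.19.

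**Figure D4:**
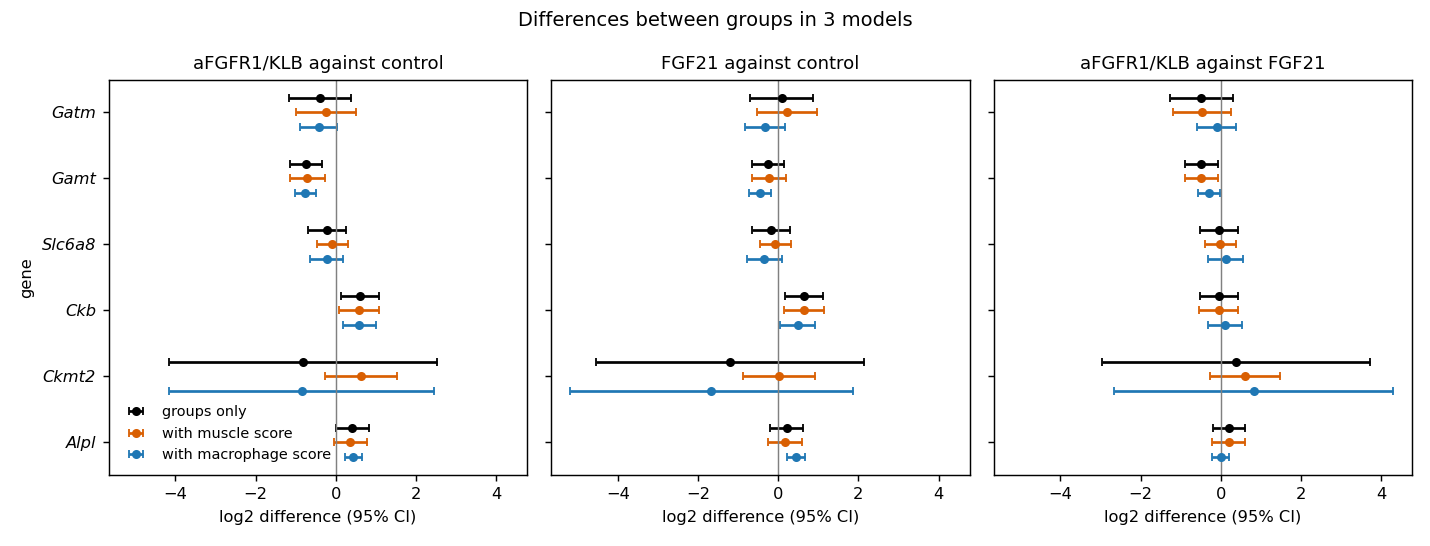
Log2 difference of the 6 tested creatine genes (rows) in the 3 comparisons (panels), as points with 95% confidence intervals from models with the groups only, with the muscle score and with the macrophage score. The Ckmt2 interval narrows with the muscle score, from −4.16 to 2.53 to −0.28 to 1.54 for the antibody against control, and the Gamt point stays between −0.76 and −0.71 there.

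Genes that feed or surround the pathway were taken from 2 lists written down with the design, when earlier results of these data were known. The counts below are thus not independent of the data. Of 17 genes for the precursors, the methyl donor and its by-product, 12 were tested. With the antibody 1 rose (2.69% of all genes did) and 1 fell (2.49%), and the median of the list was 0.03. Mat2b, the regulatory subunit of the enzyme that makes S-adenosylmethionine, the methyl donor of Gamt, rose from 10.34 ± 0.23 (SD) to 10.80 ± 0.04, by 0.47 ± 0.10 (adjusted p = 0.0166). Ahcyl2, a relative of the enzyme that removes the by-product of methylation, fell by 0.52 ± 0.13 (adjusted p = 0.0345) with the antibody and by 0.63 ± 0.13 with FGF21 (adjusted p = 0.0113). With FGF21 it was the 1 member of that list that fell (3.68% of all genes), 0 rose, and the median was −0.02. Before adjustment 4 of the 12 lay under 0.05 in either direction, where 20.4% of all genes did. Asl, which releases arginine, differed by 0.33 (FGF21, adjusted p = 0.164), Gnmt, which spends methyl groups on glycine, by 0.30 (antibody, adjusted p = 0.108) and Glyctk by −0.22 (FGF21, adjusted p = 0.119), and none passed.

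Of 20 genes for kinase partners, transporters and phosphatases, 15 were tested. With the antibody 4 rose and 1 fell (median 0.03), where 2.69% and 2.49% of all genes did. With FGF21 2 rose, where 2.64% of all genes did, and 2 fell, where 3.68% did (median −0.04). Before adjustment 7 (antibody) and 6 (FGF21) of the 15 lay under 0.05, where 19.4% and 20.4% of all genes did. The risers carry phosphate or taurine. Slc20a1, a phosphate importer of the cell surface, rose from 8.32 ± 0.04 in controls to 8.73 ± 0.12 with FGF21 (0.41 ± 0.07, adjusted p = 0.00234) and 8.64 ± 0.11 with the antibody (0.32 ± 0.07, adjusted p = 0.0133). Slc20a2, its relative, rose by 0.50 ± 0.10 with the antibody (adjusted p = 0.0114) and was 0.24 ± 0.10 above control with FGF21 (adjusted p = 0.19). Slc6a6, the taurine transporter of the family of Slc6a8, rose by 0.43 ± 0.07 with FGF21 (adjusted p = 0.00253) and by 0.25 ± 0.07 with the antibody (adjusted p = 0.0484). Slc25a3, the phosphate carrier of mitochondria, rose by 0.21 ± 0.05 with the antibody (adjusted p = 0.0345).

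The phosphatase Lhpp fell by 0.34 ± 0.08 with the antibody (adjusted p = 0.0237) and by 0.40 ± 0.08 with FGF21 (adjusted p = 0.00817). Ank, which exports pyrophosphate and ATP, fell by 0.61 ± 0.16 with FGF21 (adjusted p = 0.0408). Slc6a13, another transporter of that family, differed by −0.71 ± 0.24 with the antibody (adjusted p = 0.0993), and Phospho2 and the channel Vdac3 by at most 0.15 in any comparison. Between the treatments limma called 0 of 12 and 0 of 15, with 1 and 3 under 0.05 before adjustment, where 13.5% of all genes were. Of the 12 calls in both lists 7 were kept in every fit without 1 sample, those of Mat2b and Slc20a2 with the antibody, of Slc20a1 in both, and of Ahcyl2, Lhpp and Slc6a6 with FGF21. The other 5 were lost in some of the 15 fits: with the antibody Slc6a6 in 13, Ahcyl2 in 9, Slc25a3 in 8 and Lhpp in 6, and with FGF21 Ank in 11. With quantile normalization 10 of the 12 were kept, and those of Slc6a6 (adjusted p = 0.0571) and Lhpp (adjusted p = 0.0728) with the antibody were lost. With arrays centred on ribosomal protein genes only 1 of the 12 was kept, Slc6a6 with FGF21 (0.44, adjusted p = 0.0288), with the direction of each of the 12 as before. Without control 34 and FGF21 36 the first list had 1 up and 1 down with the antibody and 0 and 2 with FGF21, and the second 4 and 3, and 2 and 3. In those fits 12.4% (antibody) and 16.2% (FGF21) of all genes passed in either direction. With the muscle score in the model 2 of the second list rose and 1 fell with the antibody, where 4.3% of all genes passed.

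Likeness to each member was measured as Pearson r over the 15 samples against 13173 other genes, as a description of these libraries. Ckmt2 was most like Pgam2, the muscle phosphoglycerate mutase, Mybpc2, a myosin-binding protein of fast fibres, and Apobec2 (r = 0.991, 0.990 and 0.990). Gatm was most like Igsf8 (0.975), Ten1 (0.951) and Rad50 (0.943). Slc6a8 was most like Wipi1, an autophagy protein (0.939), Castor2 (0.929) and Camk2g, a calmodulin kinase (0.925). Alpl was most like Aspg (0.934), the carnitine transporter Slc22a5 (0.930) and Ppp1r15b (0.929). Gamt was most like the splicing factor Eftud2 (0.915), Crtap (0.906) and the prostacyclin synthase Ptgis (0.902). Ckb was most like Stt3b, a subunit of the enzyme that glycosylates proteins (0.913), 5031439G07Rik (0.907) and the lysosomal acid lipase Lipa (0.900). Group-centred r for these pairs ranged from 0.794 to 0.993.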

How the data were processed

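The starting material was total RNA of interscapular brown fat from 15 mice, the label was biotin, and 15 arrays were read. The authors deposited linear intensity values (5.58 to 34652), 1 for each probe set of an array, made with RMA, per the submitters' processing notes. RMA corrects background, normalises by quantiles and summarises probe sets, which makes overall differences in total RNA invisible. Its version is not given in the sources used here. Log2 was taken with no further scaling. Of 45101 probe sets 34958 carry 1 symbol, 932 several and 9211 are not listed in GEO's platform annotation. All 9 probe sets of the members matched RefSeq by Entrez ID.

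A gene was tested if its mean exceeded 5.06, the 40th percentile over probe sets. The test was limma 3.58.1 in R 4.3.3 (1 model of 3 groups over 15 samples, two-sided, Benjamini-Hochberg over 13174 genes, threshold 0.05), after a test on simulated data. Correlations used 100000 two-sided permutations, within groups for centred values, and single genes an exact permutation of 252 splits (smallest p 0.00794). Arrays carry no read depth, and their number limits the precision. The labels name no batch. Named genes were the members, the 3 genes most like each, and list genes that passed in a comparison or, up to 3 per list, had the smallest p. Members and lists were chosen with earlier results of these data known. Tried alternatives were other scaling, filters, probe sets, variance models, covariates and samples.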

Additional observations from a re-analysis of the deposited data

Results flagged for a closer look

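Single samples far from the other 4 of their group were found in 5 of the 21 sets of 5 values (7 genes in 3 groups). For independent, normally spread values the limit used gives about 1 in 20. The sets share arrays, and every flag fell on control 34, FGF21 36 or aFGFR1/KLB 45. The share over all genes was not worked out, so an excess among the creatine genes is not shown. Gatm in control 34 (7.18) lay 0.867 of the whole range of its group from the nearest value, and Gatm in FGF21 36 (8.0) 0.904 of it. Slc6a8 in FGF21 36 (9.93) had a gap of 0.913 of the range and Slc6a8 in aFGFR1/KLB 45 (9.44) one of 0.712, the 2 samples with the highest muscle scores. Alpl in aFGFR1/KLB 45 (6.89) was the lowest of its group, with a gap of 0.810. The limit for 5 values is 0.710, so aFGFR1/KLB 45 in Slc6a8 lay close to it.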

How the results depend on the processing

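The number of creatine genes called in the antibody comparison was 1, where 5.18% of all genes passed. It was 0 with a muscle covariate (4.3% of all genes), 2 with a macrophage covariate (13.5%) and 2 without control 34 and FGF21 36 (12.4%). With both covariates, a model chosen after seeing the data, it was 2, and the share of all genes was not worked out. In the fits without 1 sample it was 0 to 1. Without control 34 the 1 called was Ckb and not Gamt (8.65% of all genes). With FGF21 the count was 0, where 6.32% of all genes passed. It was 2 with a macrophage covariate (10.1%), 1 without both arrays (16.2%), 2 with both covariates (share not worked out) and 0 to 1 without 1 sample. Between the treatments it was 0 in every fit. The 60th percentile filter left Gatm out. Centring on 44 ribosomal protein genes moved the median of all genes by 0.10 in the antibody comparison, and Gamt was then at −0.64 (adjusted p = 0.0371).

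The signs that turned were of differences that did not pass. Ckmt2 with the antibody was 0.63 with a muscle covariate, 0.60 with both covariates and −1.93 to 0.11 without 1 sample, and with FGF21 it was 0.027 with a muscle covariate. Gatm with FGF21 was −0.33 with a macrophage covariate, −0.10 without both arrays, −0.21 with both covariates and −0.33 to 0.32 without 1 sample. Slc6a8 with FGF21 was 0.063 on its dimmer probe set. Between antibody and FGF21, Ckb was 0.040 with ribosomal centring, 0.10 with a macrophage covariate, 0.085 without both arrays, 0.10 with both covariates and −0.18 to 0.087 without 1 sample. Slc6a8 there was 0.051, 0.12, 0.22 and 0.11 in the same settings and −0.17 to 0.22 without 1 sample, Alpl −0.006 with a macrophage covariate and −0.005 with both covariates, and Ckmt2 −0.73 to 1.45 without 1 sample. The relation of Slc6a8 to muscle (r = 0.657) missed the threshold on centred values (0.632), without the 2 farthest samples (0.635), without both arrays (0.620) and with averaged probe sets (0.537), and was 0.608 to 0.757 without 1 sample. The causes were not tested. No paired analysis was possible because the groups share no replicate number.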
